A study of Mus musculus with 1931 samples.

Results

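Wnt proteins are secreted, lipid-modified signals that bind Frizzled receptors together with the co-receptors Lrp5 and Lrp6, and in the canonical branch they stabilise beta-catenin, which then acts with Tcf/Lef factors on target genes. Wnts leave a cell only after the acyltransferase Porcn has lipidated them and the cargo receptor Wls has carried them to the surface, while Axin2, Znrf3, Rnf43, Kremen1 and Notum restrain the signal at several steps. In the early mouse embryo the pathway is known for its part in pluripotency, in the posterior epiblast and in trophoblast.

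The genes described here are the mouse Wnt ligands (19 in the deposited table), the Frizzled receptors (10) and 14 named partners and modulators (Lrp5, Lrp6, Kremen1, Axin2, Porcn, Wls, Lgr4, Lgr5, Rnf43, Znrf3, Tcf7, Tcf7l1, Tcf7l2 and Notum). They are 43 of 20999 genes in all, taken by gene symbol from a list drawn up with earlier results of these data known. They were measured by SMART-seq2, a full-length single-cell RNA-seq method, in Rosette-to-Lumen stage (RtL) embryoids and in 3 monocultures. RtL-embryoids are aggregates of 3 embryonic stem cell (ESC) lines. Kermit ESCs carry an Oct3/4 promoter-driven GFP and no inducible factor, iGATA6 ESCs, here also transduced with mCherry, carry a lentiviral Gata6 transgene that doxycycline (DOX, 2 µg/ml) switches on, and 5-Factor ESCs carry DOX-inducible Cdx2, Tfap2c, Eomes, Gata3 and Ets2. Aggregates spent their first day in ESC medium, which contains an inhibitor of GSK3, a kinase of the Wnt pathway, and then stayed in reconstructed embryo medium with DOX for 3 days and without it for a further day. The 2D cultures were Kermit ESCs kept with LIF and inhibitors of GSK3 and MEK (2i) and given no DOX, iXEN cells made from the mCherry-carrying iGATA6 line in XEN medium, and iTSCs made from the 5-Factor line with FGF4 and heparin. Both converted cultures had DOX for 3 days and then a day without it. In 3D and 2D alike, the Kermit line was sorted by GFP, the iGATA6 line by mCherry and the 5-Factor line by an antibody to the surface protein CD40.

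The 3D cells came from 1 pool of embryoids, picked by hand for complete compartments and laid out on 3 plates (plates 3, 4 and 5). Well columns 1 to 8, 9 to 16 and 17 to 24 held the epiblast-like (Epi), visceral endoderm-like (VE) and extraembryonic ectoderm-like (ExE) sorts, called Epi, VE and ExE wells here. The sample labels do not give this layout, and it was checked with markers. Of 1931 wells, 1406 held a cell with at least 2500 genes above 0, of which 22.3% were in Epi wells, 22.4% in VE wells, 25.1% in ExE wells, 10.1% in the ESC culture and 10.03% in each of the iXEN and iTSC cultures. The median number of genes above 0 was 4823 to 5396 in the 3 well blocks and 8537 to 9094 in the 2D cultures, and it differed between the 3D plates (6360 on plate 3, 4851 on plate 4 and 4643 on plate 5). Where shares of cells with a gene stand side by side for 3D and 2D groups below, no order is read from them. All 9 Epi markers, all 8 VE markers and all 9 ExE markers had their highest mean among the well blocks in the wells of their own name. Cdx2, Tfap2c, Eomes and Gata3 among them are also transgenes, and the deposited values do not tell transgene RNA from native RNA.

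Single cells did not always follow their wells. With each marker's level scaled to its highest block mean, the Epi list led in 93.6% of the cells of the Epi wells and the VE list in 98.4% of those of the VE wells. The ExE list led in 75.9% of the cells of the ExE wells, where the VE list led in 15% (53 cells) and the Epi list in 9.07% (32 cells). Scored instead by the share of each list's markers found in a cell, the ExE list led in 47.9% of the ExE-well cells, so leading list depends on the score, and the level score is used unless stated. The summed level of the VE markers was 25.6 in VE wells and 4.88 in ExE wells, and that of the Epi markers was 281.8, 79.5 and 9.07 in Epi, VE and ExE wells. Results for the ExE wells are therefore also given by leading list, and the part of these cells in the other results was not tested. Of the 4 parietal endoderm genes, Sparc and Srgn had their highest means in VE wells and iXEN cells. Plat was at 0.527 in VE wells, 0.581 in ExE wells and 0.775 in iXEN cells and at 0.0584 or less elsewhere, and Thbd at 0.00655 or less in all 6 groups. Of the 4 fibroblast genes, Col1a1, Col1a2 and Dcn were at 0.0091 or less, and Thy1 was highest in Epi wells (0.0398) and called higher there than in both other blocks.

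Levels are given as TP10k, the deposited TPM rescaled to a sum of 10000 per cell, averaged over the cells of a group, and followed where useful by the means on plates 3, 4 and 5 in that order. TPM is per transcript length, so TP10k levels can be set side by side between genes. Each group is a single pool or culture, so no p-value was computed and the plates show technical spread only. A lower mean can go with fewer cells that have the gene or with less RNA in each, so the share of cells is given beside the main levels. A share also moves with depth, so it does not fully separate these. A gene is called higher in a group when the ratio of means is at least 2 and the direction is the same on each of the 3 plates (against a 2D culture, when each plate mean lies on the same side of the culture's mean). Calls were made for the 13760 genes, 29 of the 43 members among them, that were found in at least 5% of cells as a mean over the 6 groups. Just inside this limit were Rnf43 (7.06%) and Fzd1 (6.35%), and just outside it Fzd8 (4.77%) and Wnt2b (3.05%). A gene can pass the limit through the group where it is high, and its call as higher there is then not independent of the limit. This bears on Fzd1 in ExE wells (16.1% of cells) and on Rnf43 (22%) and Wnt9a (47.5%) in iXEN cells. In the other groups these genes were found in at most 11.3%, 6.38% and 11.3% of cells.

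Of the 43 members, 28 have a promoter entry in RefSeq (GRCm38.p6). Windows of 3 of these are shown because their levels set the groups apart most clearly in the results: Wnt11, the leading Wnt of VE wells, Wnt6, the leading Wnt of iTSCs, and Wls, highest in ExE wells. Each line gives the 250 bases before the transcription start, 5′ to 3′ on the plus strand that carries the gene, at chr7:98834862-98835111 (Wnt11, the first of its 2 listed starts), chr1:74771642-74771891 (Wnt6) and chr3:159839400-159839649 (Wls). Capitals mark matches to CTTTGAA or CTTTGAT, letters bound by Tcf/Lef factors, and to GCCNNNGGC, letters bound by TFAP2 factors, on either strand. The Wls window holds neither and is shown whole in lower case.
Wnt11: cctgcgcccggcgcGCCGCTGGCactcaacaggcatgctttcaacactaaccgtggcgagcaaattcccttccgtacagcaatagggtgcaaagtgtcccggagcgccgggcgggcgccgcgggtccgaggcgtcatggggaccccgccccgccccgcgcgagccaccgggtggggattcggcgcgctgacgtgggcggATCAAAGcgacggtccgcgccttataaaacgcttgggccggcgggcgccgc
Wnt6: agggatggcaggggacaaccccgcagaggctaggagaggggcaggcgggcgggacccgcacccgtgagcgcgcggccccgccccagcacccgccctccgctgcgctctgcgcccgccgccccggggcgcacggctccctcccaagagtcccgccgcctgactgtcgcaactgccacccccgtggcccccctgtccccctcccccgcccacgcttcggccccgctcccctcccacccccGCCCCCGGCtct
Wls: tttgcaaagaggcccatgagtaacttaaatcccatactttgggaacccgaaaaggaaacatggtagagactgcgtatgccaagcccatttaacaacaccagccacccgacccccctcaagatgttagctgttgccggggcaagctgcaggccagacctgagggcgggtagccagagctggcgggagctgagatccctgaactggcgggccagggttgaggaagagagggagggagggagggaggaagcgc
The RefSeq table holds 21 windows for 17 of the 29 members over the limit. A Tcf/Lef match stood in 1 of the 21, that of Wnt11 (ATCAAAG on the plus strand), and in 7.48% of all 32851 promoter windows. GCCNNNGGC stood in 8 of the 21 windows (38.1%, of 7 genes) and in 13.7% of all windows. The windows of all members with an entry were richer in G and C, with a median of 70% against 52.4% over all windows, and no comparison at matched composition was made. AGATAA, letters bound by GATA factors, stood in 2 of the 21 windows (Fzd1 and the second listed start of Tcf7l2) and in 9.99% of all windows. A match is a string of letters only, and binding was not measured.

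VE wells differed from the other blocks in their main Wnt ligand. The 19 Wnt genes summed to 0.0897 TP10k in Epi wells, 0.549 in VE wells and 0.70 in ExE wells, and to 0.0554 in ESCs, 0.431 in iXEN cells and 2.41 in iTSCs. Wnt11 made up 78.9% of the sum in VE wells and 61% in iXEN cells. Wnt7b (37.3%) and Wnt5a (31.1%) led in ExE wells, and Wnt6 (49%) and Wnt7b (45.5%) in iTSCs. In Epi wells Wnt7b also led, with 25.6% of their smaller sum, followed by Wnt8a (15.1%). No Wnt was found in 79% of the cells of Epi wells, against 36.2% in VE wells and 29.2% in ExE wells.

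**Figure D1:**
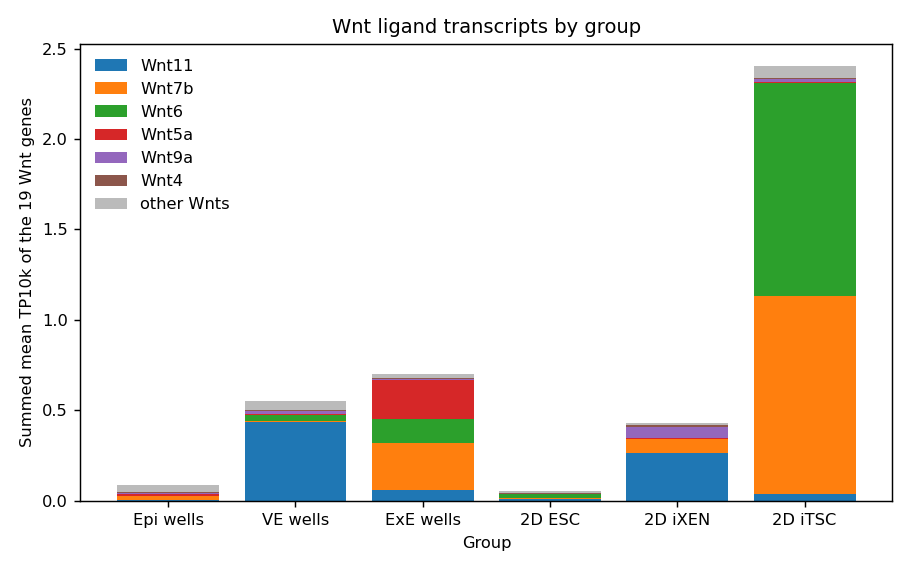
Stacked bars show the summed mean TP10k of the 19 Wnt genes in each of the 6 groups, coloured by gene (y axis, TP10k, from 0). Wnt11 fills most of the bars of VE wells and iXEN cells, Wnt6 and Wnt7b most of the 2.41 of iTSCs, and Epi wells (0.0897) and ESCs (0.0554) have the lowest bars.

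Wnt11, a ligand best known for beta-catenin-independent signalling, was found in 47.9% of the cells of VE wells (95% Clopper-Pearson interval 42.3 to 53.6%, which like the other intervals covers counting error only). Its mean was 0.369, 0.484 and 0.451 TP10k on the 3 plates of the VE wells and 0.0567, 0.0740 and 0.0431 in the ExE wells. In the Epi wells 1 cell had it, on plate 3, so no fold is given against them. The VE wells were 7.47-fold higher than the ExE wells (6.51-fold to 10.48-fold by plate), with no overlap of plates. iXEN cells were at 0.263, and the VE wells were 1.65-fold above them, short of a call. Within the ExE wells, Wnt11 was at 0.185 in the cells led by the VE marker list, at 0.0398 in those led by the ExE list and at 0 in those led by the Epi list.

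Wnt5a, likewise a mainly non-canonical ligand, was called higher in the ExE wells than in both other blocks and than in iTSCs. It stood at 0.216, 0.213 and 0.225 TP10k on the 3 plates of the ExE wells, at 0.0137, 0.00691 and 0 in the Epi wells and at 0.00418, 0.00411 and 0.00902 in the VE wells. The ExE plates lay close together and above every other plate. The ExE wells were 38.6-fold higher than the VE wells, 32.3-fold higher than the Epi wells and 36.3-fold higher than iTSCs (0.00601), the 2D culture made from the same line. Wnt5a was found in 33.1% of ExE-well cells (interval 28.3 to 38.3%) and in 17 iTSCs (12.1%), where 1 cell held 65.5% of the summed level. Its mean was 0.193 in ExE-well cells led by the ExE list, 0.253 in those led by the VE list and 0.370 in those led by the Epi list.

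Wnt7b, a canonical ligand known from the placenta and lung, and Wnt6 were present in ExE wells and iTSCs, with higher levels in the culture. Wnt7b was at 0.269, 0.285 and 0.227 TP10k on the 3 plates of the ExE wells and at 1.09 in iTSCs, 4.20-fold higher. Wnt6 was at 0.155, 0.141 and 0.0952 in the ExE wells and at 1.18 in iTSCs, 8.98-fold higher. Both were called higher in ExE wells than in the VE and Epi wells, and in the ExE wells both were highest in the cells led by the ExE list (0.340 for Wnt7b and 0.155 for Wnt6). For Wnt6 this order did not hold on plate 4, with 0.154 in cells led by the VE list and 0.153 in those led by the ExE list. Only 3 cells led by the VE list and 2 led by the Epi list had Wnt6. Wnt6 was also above 0 on each plate of the VE wells (0.0343, 0.0244 and 0.0405), 3.99-fold below the ExE wells but 9.62-fold above iXEN cells (0.00341, 3 cells). Wnt7b went the other way in the endoderm pair, at 0.00784 in VE wells (4 cells) and 9.81-fold higher in iXEN cells (0.0770, in 40.4% of cells).

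Wnt9a and Wnt4 were scarce. Wnt9a had its highest level in iXEN cells (0.0589 TP10k, found in 47.5% of cells), 3.45-fold above the VE wells (0.0164, 0.0156 and 0.0194 by plate). It was called 2.98-fold higher in VE than in ExE wells, which fell to 1.97 without plate 5. Wnt4 stayed between 0.00408 and 0.0136 in the 6 groups and was not called in any of the 6 comparisons.

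Of the 14 members under the limit, 13 were Wnts and the other was Fzd8 (9.15% of ESCs). Wnt2, a ligand known from lung and placenta, was found in 19 cells of VE wells (6.03%), on each plate (0.0291, 0.0314 and 0.0219 TP10k), and it was listed at 0 in Epi wells, ExE wells and ESCs. Wnt10a was found in 14 iTSCs (9.93%), all of which also had Wnt6, a gene found in 78.7% of all iTSCs. Wnt10a lies 6.19 kb beyond the end of Wnt6 on chromosome 1 (Gencode vM21, GRCm38), with Wnt6 at 74771892-74785322 and Wnt10a at 74791516-74804179. Wnt3, a ligand of the posterior epiblast, was found in 8.51% of iTSCs, Wnt2b in 7.09%, Wnt5b in 6.38%, Wnt16 in 4.96%, Wnt8a in 3.55%, Wnt3a in 2.84% and Wnt7a in 2.13%. Wnt8b and Wnt9b were found in 1.42% and 0.709% of iXEN cells, and Wnt1 (0.709%) and Wnt10b (1.42%) had equal shares in iXEN cells and iTSCs. The 2D cells had more genes above 0, so these shares set no order against the 3D wells.

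The proteins that release Wnts were highest in different blocks. Wls was at 1.75, 1.71 and 1.61 TP10k on the 3 plates of the ExE wells, at 0.437, 0.303 and 0.318 in the VE wells and at 0.0746, 0.0515 and 0.101 in the Epi wells. The blocks did not overlap, and the ExE wells were 4.77-fold higher than the VE wells and 22.4-fold higher than the Epi wells. Wls was found in 76.5% of the cells of ExE wells, 46.3% of those of VE wells and 12.4% of those of Epi wells. Porcn ran in the opposite order, at 0.665, 0.497 and 0.633 in Epi wells, 0.303, 0.324 and 0.431 in VE wells and 0.0797, 0.209 and 0.0924 in ExE wells. Again the blocks did not overlap, and the Epi wells were 4.71-fold and the VE wells 2.76-fold higher in Porcn than the ExE wells. Porcn was found in 45.2% of cells in Epi wells, 32.1% in VE wells and 12.2% in ExE wells. In the ExE wells Porcn was at 0.475 in the cells led by the VE list and at 0.0641 in those led by the ExE list. Wls differed less between these cells, at 1.80 with the VE list leading, 1.63 with the ExE list and 2.06 with the Epi list. The block with the highest Wls and the highest Wnt sum thus had the lowest Porcn mean.

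**Figure D2:**
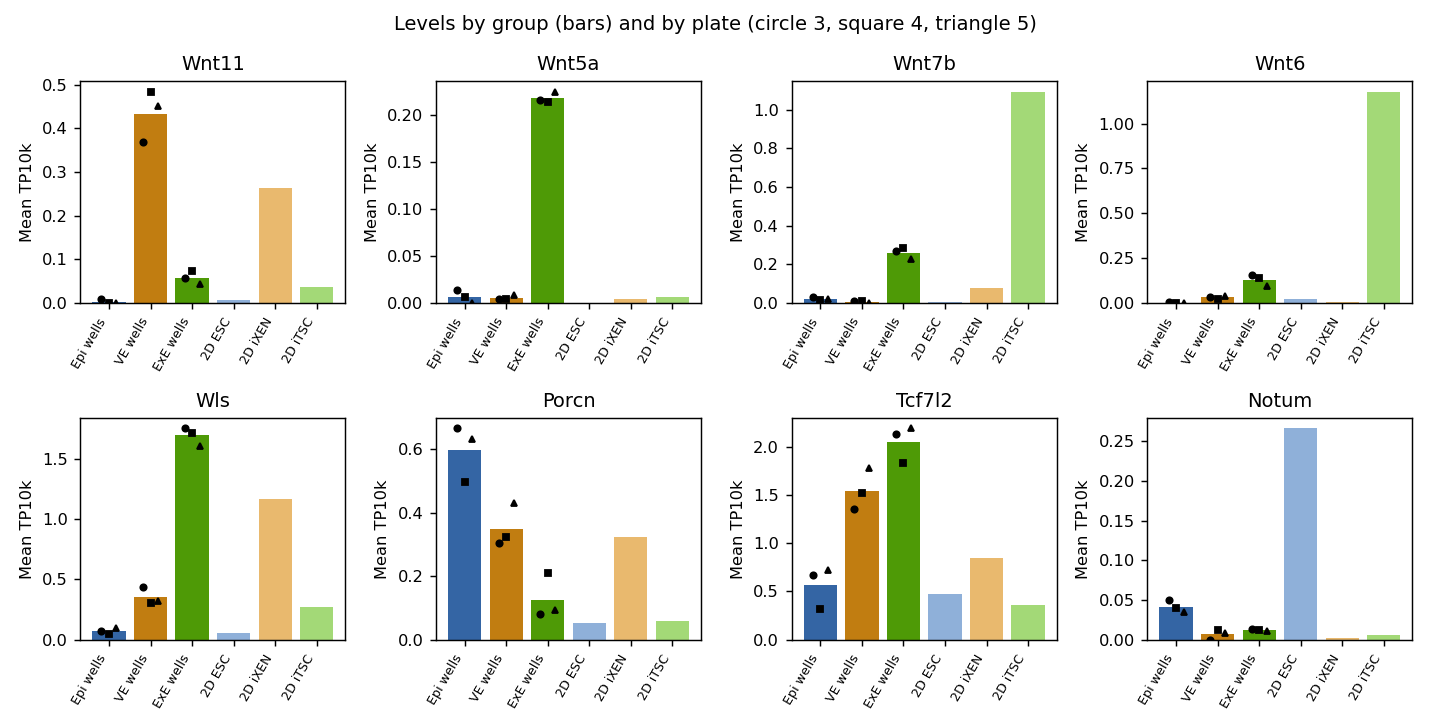
Each panel gives the mean TP10k (y axis, from 0, its own scale) of 1 gene in the 6 groups, with bars for the means over all cells of a group and symbols for the means on plates 3, 4 and 5 of the 3D wells. Wnt11 is highest in VE wells (0.433), Wnt5a (0.218), Wls (1.69) and Tcf7l2 (2.05) in ExE wells, Porcn in Epi wells (0.597), Wnt6 and Wnt7b in iTSCs (1.18 and 1.09) and Notum in ESCs (0.266).

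Among the Frizzled receptors, Fzd7, a receptor used by pluripotent cells, had the highest mean in each well block. It stood at 0.195, 0.274 and 0.192 TP10k in Epi wells, at 0.111, 0.101 and 0.0722 in VE wells and at 0.0866, 0.0627 and 0.115 in ExE wells. The Epi plates were above all the others, 2.31-fold over VE wells and 2.52-fold over ExE wells, a ratio of 1.93 without plate 4. Fzd7 was found in 62.4% of cells in Epi wells, 44.4% in VE wells and 34.3% in ExE wells. Fzd5, a receptor needed for placental vessels, was also highest in Epi wells among the blocks (0.0577, 0.0558 and 0.0428) and higher again in ESCs (0.135, found in 95.1% of cells). Fzd10 had means of 0.00203 in VE wells, 0.0121 in ExE wells, 0.0237 in Epi wells and 0.0515 in ESCs.

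Fzd1, Fzd3 and Fzd6 had their highest block means in ExE wells. Fzd1 was found in 57 cells there (16.1%), at 0.0658, 0.0563 and 0.0493 TP10k by plate, against 5 cells in the Epi wells and 4 in the VE wells. Fzd6, linked to planar cell polarity, was at 0.0631, 0.0650 and 0.0476, 4.60-fold above VE wells and 3.87-fold above Epi wells. Both were about as high in the ExE-well cells led by the ExE list (0.0544 for Fzd1 and 0.0559 for Fzd6) as in all ExE-well cells. Fzd3 was 4.11-fold above the VE wells, but against the Epi wells (0.0235) it fell short of a call. Fzd4, the receptor of norrin, had its highest block mean in VE wells (0.0158, 0.0211 and 0.0211) and a higher one in iXEN cells (0.0466, found in 52.5% of cells). Fzd2 was lowest in VE wells (0.00551), and Fzd9 was found in under 5% of the cells of each block and was highest in ESCs (0.0324).

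The co-receptor Lrp6 lay between 0.120 and 0.222 TP10k in the 6 groups and was not called in any of the 6 comparisons. Lrp5 lay between 0.0167 and 0.0491 and was called in 1, at 2.24-fold higher in Epi wells than in ESCs. That call was lost with values capped at the 99th percentile (1.73) and with means of ln(TP10k + 1) (1.93). Lrp5 was found in 22% of the cells of Epi wells and 86.6% of ESCs, shares taken at unequal depth. Lrp6 was found in 42% of cells in Epi wells, 60% in VE wells and 63.7% in ExE wells. Kremen1, which removes Lrp6 from the surface together with Dkk proteins, was highest among blocks in ExE wells (0.120, 0.105 and 0.0762, found in 33.7% of cells, against 24.8% in VE wells and 17.8% in Epi wells). The ratio of VE to ExE wells was 0.49, a call that was lost without plate 3 (0.57) and without plate 4 (0.504).

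Lgr4 was the main R-spondin receptor, with 0.784, 0.562 and 0.816 TP10k in Epi wells, 0.640, 0.724 and 0.887 in ExE wells and 0.239, 0.229 and 0.439 in VE wells. It was lower in VE wells than in Epi wells (2.42-fold) and ExE wells (2.52-fold) with no overlap, the latter short of a call (a VE to ExE ratio of 0.56) when cells led by another list by share of markers were left out. Lgr4 was found in 92% of cells in Epi wells, 82.7% in ExE wells and 73.7% in VE wells. Each block was higher in Lgr4 than its 2D culture, by 3.63-fold for Epi wells, 2.42-fold for VE wells (1.91-fold without plate 5) and 3.73-fold for ExE wells. In the ExE wells Lgr4 was at 0.626 in cells led by the ExE list and at 1.02 and 1.32 in those led by the VE and Epi lists. Lgr5, its stem-cell relative, was at most 0.00887, in iTSCs. Of the ubiquitin ligases that clear Frizzleds from the surface, Znrf3 lay between 0.0711 and 0.110 in the 6 groups and was not called in any comparison, whereas Rnf43 was found in 4 cells of Epi wells and 2 ESCs. Rnf43 was at 0.0445, 0.0337 and 0.0247 in ExE wells and at 0.0216, 0.00656 and 0.0185 in VE wells. The ExE-well cells led by the ExE list had only 0.0149 of Rnf43, which turned the direction between these blocks (a VE to ExE ratio of 1.06 with cells led by their own list, against 0.45), and the call was lost in 9 of 14 alternatives.

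Among the nuclear factors, Tcf7 and Tcf7l1 had their highest block means in Epi wells and Tcf7l2 in ExE wells. Tcf7 was at 0.211, 0.272 and 0.339 TP10k in Epi wells, 6.74-fold above VE wells (0.0324, 0.0377 and 0.0538) and 3.17-fold above ExE wells (0.0723, 0.0807 and 0.108), and it was found in 41.7%, 12.4% and 18.7% of their cells. Tcf7l1, a repressor of pluripotency genes, was at 0.571 in Epi wells, 0.668 in ESCs and 0.282 in ExE wells, and its call between Epi and ExE wells (2.02-fold) was lost without plate 3 (1.79). Tcf7l1 was found in 72% of cells in Epi wells, 66.3% in VE wells and 61.2% in ExE wells. Tcf7l2 was at 2.13, 1.83 and 2.19 in ExE wells, at 1.35, 1.51 and 1.78 in VE wells and at 0.671, 0.318 and 0.727 in Epi wells. It was found in 91.5%, 86.3% and 61.1% of the cells of these blocks. The 3 blocks did not overlap in the level of Tcf7l2, and the ExE wells were 5.76-fold above iTSCs (0.356).

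Of the feedback inhibitors on the list, Notum, a secreted enzyme that removes the lipid from Wnts, was highest in ESCs. It was found in 71.8% of ESCs (interval 63.7 to 79.1%), at 0.266 TP10k, against 0.0504, 0.0395 and 0.0349 in Epi wells, so that ESCs were 6.42-fold higher. The other 4 groups had at most 0.0121. Axin2, a widely used read-out of canonical signalling, did not share this order. It was at 0.0124 in ESCs, the lowest mean of the 6 groups, and at 0.0176, 0.0257 and 0.0265 in Epi wells, which the rule did not call apart. Axin2 was found in 26.8% of ESCs and in 8.6% of the cells of Epi wells, shares taken at unequal depth. Its highest mean, in VE wells, held a plate that stood apart (0.0675, 0.0144 and 0.0762). In ESCs, Axin2 was found in 28.4% of the cells with Notum (interval 19.9 to 38.2%) and in 22.5% of those without (10.8 to 38.5%), intervals that overlap.

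**Figure D3:**
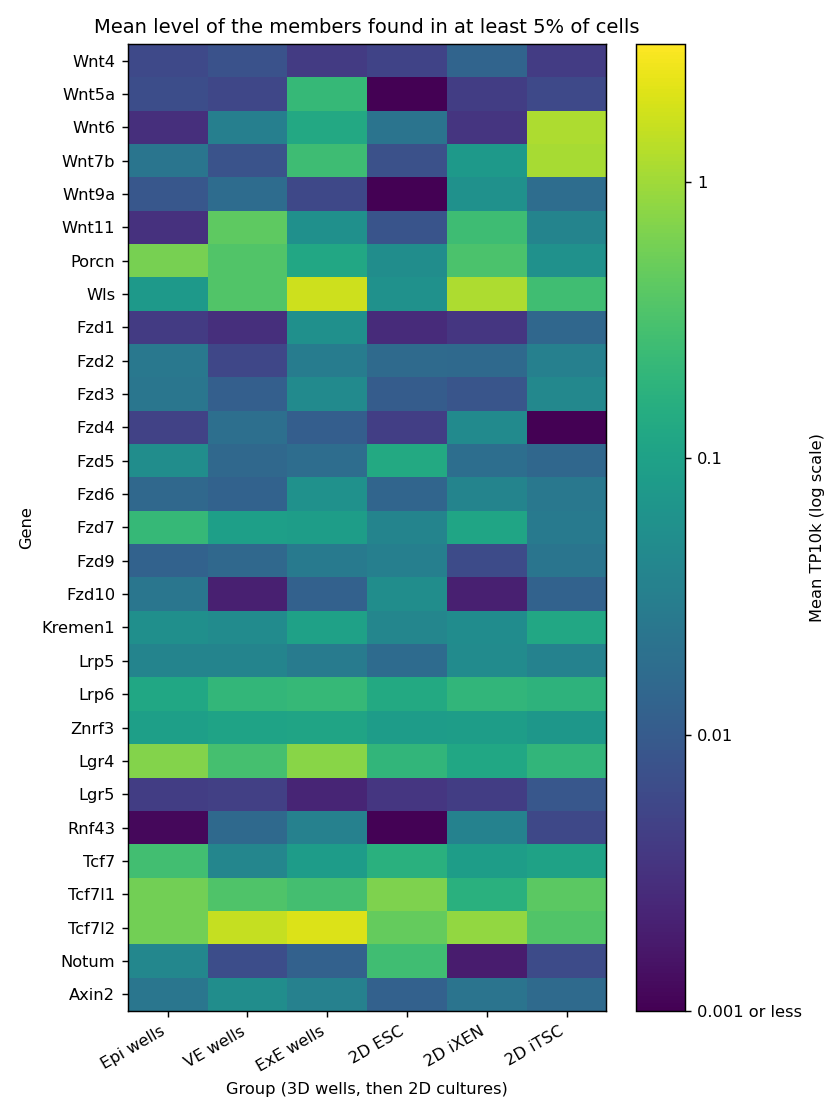
Colours give the mean TP10k on a log scale of the 29 members over the limit (rows, ordered by role) in the 6 groups (columns), with values of 0.001 or less in the darkest colour. Tcf7l2 in ExE and VE wells (2.05 and 1.54) and Wls in ExE wells (1.69) are the brightest, and the rows of Lrp6 and Znrf3 are even across groups.

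Counts of calls place the members beside all genes. Between Epi and VE wells, 8 of the 29 members (27.6%) were called higher in Epi wells, where 18% of the 13760 genes were, and 6 (20.7%) in VE wells, where 14.9% were. Higher in Epi than in ExE wells were 6 members (20.7%, with 10.8% of all genes), and higher in ExE wells 9 (31%, with 15.5% of all genes). Between VE and ExE wells, 3 members (Wnt9a, Wnt11 and Porcn) were called higher in VE wells (10.3%, with 9.22% of all genes) and 13 in ExE wells (44.8%, with 16.5% of all genes). The 13 were Fzd1, Fzd2, Fzd3, Fzd6, Fzd10, Wnt5a, Wnt6, Wnt7b, Kremen1, Wls, Lgr4, Rnf43 and Tcf7. Fzd1 among them is just inside the limit and is most often found in ExE wells, so its call is not independent of the limit. The median log2 ratio of VE to ExE wells was -0.82 over the members and -0.14 over all genes. Between Epi and ExE wells it was -0.58 over the members and -0.06 over all genes, and between Epi and VE wells 0.19 and 0.12. Markers of another lineage moved with these comparisons, since all 8 VE markers were called higher in ExE than in Epi wells and 2 of the 9 Epi markers (Pou5f1 and Dppa5a) higher in VE than in ExE wells. With only cells of 6000 to 8500 genes, 8 calls between VE and ExE wells were lost or turned. The ratio was then 0.54 for Fzd6, 0.52 for Lgr4 and 1.20 for Rnf43, whereas Fzd1, Fzd10, Wnt9a, Kremen1 and Tcf7 stayed past a fold of 2 without the same direction on each plate.

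The second question of the design is how each 3D lineage differs from its 2D counterpart. Each culture was on a plate of its own (ESCs on plate 7, iTSCs on plate 8 and iXEN cells on plate 9), apart from the 3D plates. Culture format, medium, plate and library batch differ together in these pairs, so their parts in the calls below cannot be told apart. Called higher in Epi wells than in ESCs were 7 members (24.1%, with 12.2% of all genes), namely Fzd3, Fzd7, Wnt7b, Wnt9a, Lrp5, Porcn and Lgr4. Called higher in ESCs were 5 (17.2%, with 9% of all genes), namely Fzd5, Fzd9, Fzd10, Wnt6 and Notum. Porcn was at 0.0517 TP10k in ESCs and at 0.497 or more on each Epi plate, 11.5-fold higher, and Fzd7 was 5.85-fold higher in the Epi wells (0.0378 in ESCs). Fzd7 made up 56.9% of the Frizzled sum in Epi wells and Fzd5 43.6% in ESCs. The Wnt9a and Wnt6 calls rest on 9 and 2 cells of the Epi wells. Without plate 4, Fzd3 (1.87), Fzd9 (0.51) and Fzd10 (0.56) were no longer called. With values capped at the 99th percentile, Fzd3 (1.72) and Lrp5 (1.73) were not. In this pair 4 of the 9 ExE markers (Eomes, Ascl2, Hand1 and Bmp4) were called higher in Epi wells and 1 (Gata3) in ESCs, and the list summed to 0.844 in Epi wells and 0.564 in ESCs.

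Between VE wells and iXEN cells, 4 members were called higher in the wells (13.8%, with 5.21% of all genes), namely Fzd9, Wnt6, Lgr4 and Tcf7l1, and 8 in iXEN cells (27.6%, with 10.1% of all genes), namely Fzd2, Fzd4, Fzd6, Wnt7b, Wnt9a, Wls, Rnf43 and Tcf7. Wls was 3.29-fold higher in iXEN cells (1.17 TP10k) than in VE wells. Porcn was nearly equal, at 0.349 in VE wells and 0.325 in iXEN cells. The calls of Tcf7l1 and Rnf43 were lost without plate 4 (1.92 and 0.57) and that of Tcf7 without plate 3 (0.51). When only cells of 6000 to 8500 genes were kept, 6 of the 12 calls were lost. The ratios of VE wells to iXEN cells were then 0.92 for Fzd2, 0.63 for Fzd6, 0.98 for Rnf43 and 1.84 for Tcf7l1. For Fzd9 and Lgr4 the plates went in different directions. This window narrows the range of depth, but depth inside it was not matched between the groups. The Epi markers Pou5f1, Nanog, Sox2 and Dppa5a (4 of 9) were also called higher in VE wells, with a summed level of the list of 79.5 against 39.5 in iXEN cells. Their part in the calls of members was not tested.

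Between ExE wells and iTSCs, 11 members were called higher in the wells (37.9%, with 11.2% of all genes), namely Fzd1, Fzd4, Fzd6, Fzd7, Wnt5a, Axin2, Porcn, Wls, Lgr4, Rnf43 and Tcf7l2. Called higher in iTSCs were 4 (13.8%, with 14.5% of all genes), namely Wnt6, Wnt7b, Wnt9a and Lgr5. Markers of other lineages moved in the same comparison. Of 8 VE markers 7 were called higher in ExE wells and 1 (Cited1) in iTSCs, with the list at 4.88 in ExE wells and 8.15 in iTSCs, and of 9 Epi markers 8 were called higher in iTSCs, with the list at 25.4 against 9.07. By level the ExE list led in 94.3% of iTSCs, and by share of markers found it led in 55.3% and the Epi list in 44.7%. Wls was 6.24-fold higher in the ExE wells (0.271 in iTSCs, 1.61 or more on each ExE plate). The Wnt9a call rests on 8 cells of the ExE wells (2.27%) and 16 iTSCs (11.3%). Wnt5a, Wls, Lgr4, Tcf7l2, Wnt6, Wnt7b and Wnt9a were called in this pair in each of the 14 alternatives tried. Porcn and Axin2 were not, with ratios of 1.05 and 1.52 when only cells led by their own list by level were kept, which also left Fzd4 uncalled (7.52, not the same way on each plate), 1.45 for Porcn without plate 4 and 1.91 for Axin2 without plate 5. With only cells of 6000 to 8500 genes, Fzd7 (1.91) and Lgr5 (0.57) fell short of a fold of 2, and Fzd1, Fzd4, Porcn and Rnf43 kept it without the same direction on each plate. The direction for Wls was opposite in the extraembryonic pairs, lower in 3D against iXEN cells and higher in 3D against iTSCs, and the difference between the pairs was not tested.

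**Figure D4:**
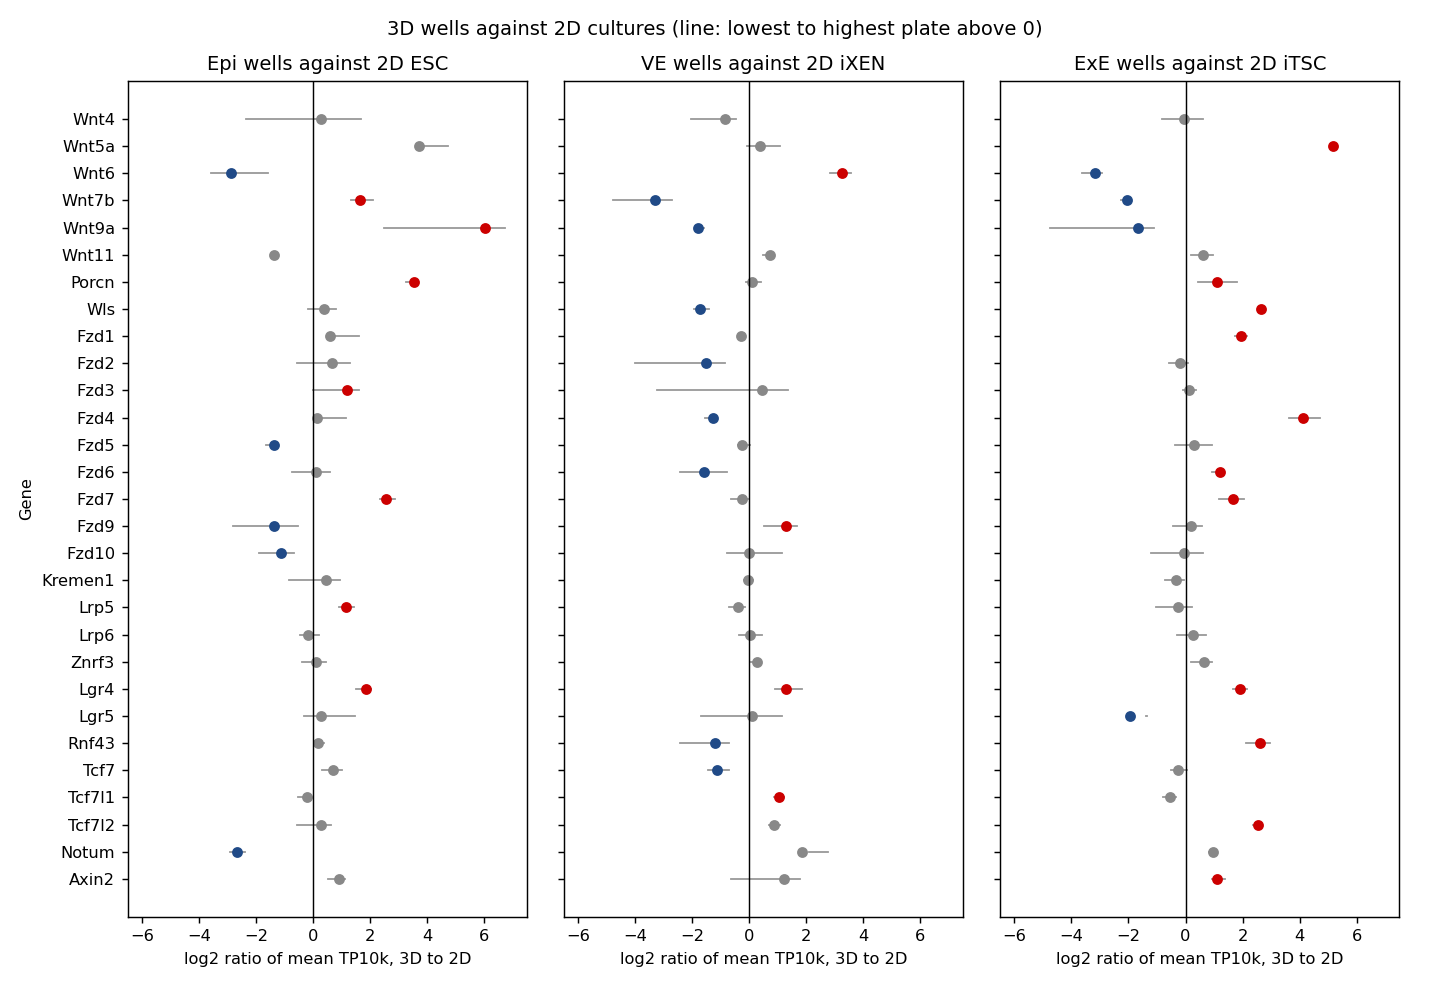
Points give the log2 ratio of mean TP10k in 3D wells to that in the matching 2D culture (x axis) for 29 members (y axis), and lines run from the lowest to the highest plate above 0. Red points are called higher in the wells (7, 4 and 11 members), blue ones higher in the culture (5, 8 and 4), and grey ones are not called.

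Within the ExE wells, Wnt5a and Wnt7b were mostly found in different cells, and Wnt6 mostly in cells with Wnt7b. These pairs were chosen after their values were seen, from 37 pairs looked at, 26 of them in ExE wells, and they are given as a description. Of 97 cells with Wnt7b, 40.2% also had Wnt6 (interval 30.4 to 50.7%), against 6.25% of those without it (3.61 to 9.95%), so that 39 of the 55 cells with Wnt6 (70.9%) had both. Wnt7b was found in 11.1% of the cells with Wnt5a (interval 6.05 to 18.3%) and in 35.6% of those without it (29.5 to 42.1%), and Wnt6 in 3.42% and 21.6%. The order was the same on each of the 3 plates for all of these. Wnt11 showed no clear split. It was found in 10.3% of cells with Wnt5a and 11.4% of those without, in an order that differed between plates. By Wnt7b it was found in 15.5% of cells with it (interval 8.92 to 24.2%) and 9.38% of those without (6.1 to 13.6%). This order was the same on each of the 3 plates, but the intervals overlap. Cells with Wnt7b had 5859 genes above 0 in the median and those without 5198, whereas cells with and without Wnt5a had 5447 and 5378. The part of depth in these splits was not tested.

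Trophoblast and endoderm genes were read in the same cells. Elf5, a transcription factor of trophoblast stem cells, was found in 75.3% of cells with Wnt7b and 18% of those without it, and in 23.1% of cells with Wnt5a and 39% of those without it. The gap for Elf5 by Wnt5a was small on plate 3 (34% against 36.1%) and larger on plates 4 (8.33% against 38.3%) and 5 (22.6% against 42.2%). Hand1, which acts in trophoblast giant cells, was found in 70.1% of the Wnt7b cells against 10.9%, and in 7.69% of the Wnt5a cells against 36.9%. Ror2, a receptor of Wnt5a, showed the reverse, in 53.8% of cells with Wnt5a against 31.4% and in 19.6% of cells with Wnt7b against 46.1%. Gata4, an endoderm factor, was found in 50.4% of cells with Wnt5a against 32.2% and in 16.5% of cells with Wnt7b against 46.5%. By Wnt5a, plates 3, 4 and 5 gave 70% against 40.3%, 33.3% against 30.9% and 38.7% against 26.5% for Gata4. Amn, another endoderm gene, ran against Gata4 for Wnt5a, in 6.84% of cells with Wnt5a (interval 3 to 13%) against 15.3% (10.9 to 20.5%). Cdx2, a transgene of the line, differed little, in 68.4% against 58.1% by Wnt5a and 67% against 59.4% by Wnt7b, and the order by Wnt5a was the other way on plate 4. Amn and Cubn were found more often in the ExE-well cells with Wnt11, in 35.9% against 9.55% and in 30.8% against 4.78%. Each was still found in a minority of the 39 cells with Wnt11. Of these cells, 24 were led by the ExE list and 15 by the VE list. Amn and Cubn were the only ones of the 8 VE markers read by Wnt11. Cells with Wnt11 had 5935 genes above 0 in the median and those without 5354.5, and the part of depth was not tested.

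**Figure D5:**
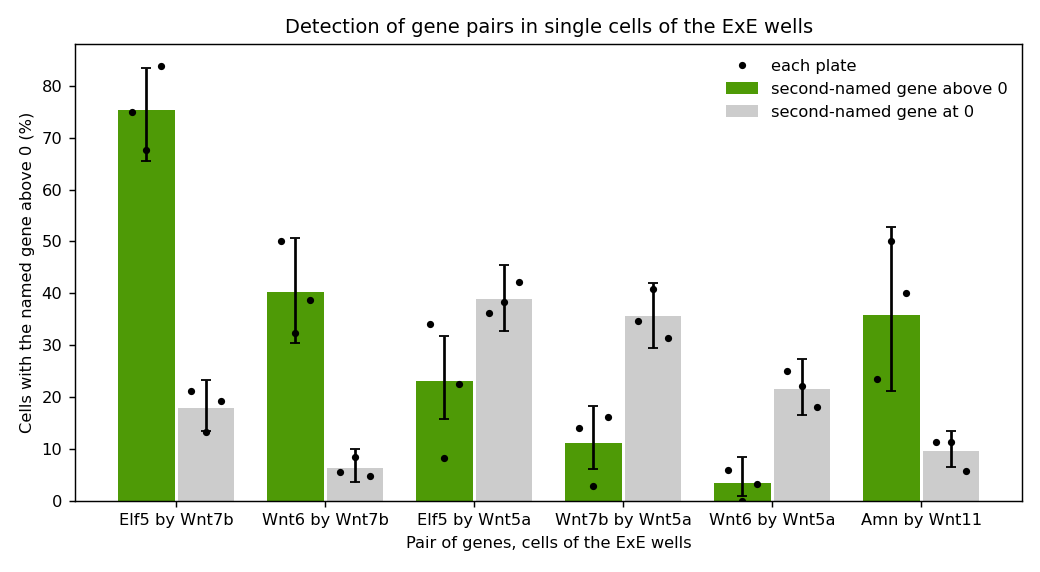
Bars give the share of ExE-well cells (y axis, %) in which the first-named gene of each label was found, green among cells with the second-named Wnt and grey among cells without it, with 95% Clopper-Pearson intervals and a point for each plate. The green bar is the higher one for Elf5 and Wnt6 by Wnt7b (75.3% and 40.2%) and for Amn by Wnt11 (35.9%), and the lower one for Elf5, Wnt7b and Wnt6 by Wnt5a (23.1%, 11.1% and 3.42%).

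Other genes of the pathway were read from lists set up for this report. Of 16 secreted antagonists and their partners, 10 were over the limit, and the blocks held different ones. Dkk1, which blocks Lrp6, was at 0.653 TP10k in VE wells and 0.419 in iXEN cells and at 0.0567 or less in the other 4 groups. Sfrp1, which binds Wnts, was at 0.359 in Epi wells, 0.666 in ESCs and 0.106 in VE wells, Sfrp2 at 0.168 in Epi wells and 0.00184 in VE wells, and Sfrp5 at 0.0872 in VE wells and 0.106 in iXEN cells. Called higher in Epi than in VE wells were Sfrp1, Sfrp2 and Sfrp4 (30% of the 10, with 18% of all genes), and Dkk1 and Sfrp5 (20%, with 14.9%) were called the other way. Higher in Epi than in ExE wells were Sfrp1, Sfrp2, Sfrp4 and Kremen2 (40%, with 10.8%), and in ExE wells Dkk1, Sfrp5 and Apcdd1 (30%, with 15.5%). Between VE and ExE wells, Dkk1, Sfrp1 and Sfrp5 (30%, with 9.22%) were called higher in VE wells and Sfrp2 and Apcdd1 (20%, with 16.5%) in ExE wells. Against the 2D cultures, 2, 2 and 3 of the 10 were called higher in Epi, VE and ExE wells (Dkk1 and Sfrp2, Dkk3 and Sfrp1, and Dkk1, Sfrp1 and Sfrp5). Called higher in the culture were 4 in ESCs (Dkk3, Sfrp5, Apcdd1 and Kremen2), 2 in iXEN cells (Sfrp2 and Sfrp4) and 5 in iTSCs (Dkk2, Sfrp2, Sfrp4, Apcdd1 and Kremen2). The shares of the 10 were thus 20%, 20% and 30% in the wells, with 12.2%, 5.21% and 11.2% of all genes. In the cultures they were 40%, 20% and 50%, with 9%, 10.1% and 14.5% of all genes. Of the R-spondins, ligands of Lgr4 and Lgr5, Rspo1 was at 0.208 in ExE wells and at most 0.0122 in any other group, and Rspo2, Rspo3 and Rspo4 stayed at 0.0136 or less.

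Most genes of the cytoplasmic and nuclear core were not called. Ctnnb1, beta-catenin itself, lay between 5.59 and 6.50 TP10k in the 6 groups, and Csnk1a1, Gsk3b and Ctnnbip1 were not called in any comparison of blocks. Of the 18 core genes, all over the limit, Btrc and Tle4 (11.1%, with 18% of all genes) were called higher in Epi than in VE wells and Bcl9l (5.56%, with 14.9%) in VE wells. Between Epi and ExE wells, Tle4 was called higher in Epi wells (5.56%, with 10.8%) and Bcl9l in ExE wells (5.56%, with 15.5%). Between VE and ExE wells, Bcl9l was called higher in VE wells (5.56%, with 9.22%) and Btrc, Bcl9 and Tle4 in ExE wells (16.7%, with 16.5%). Against the 2D cultures, Tle4 was called higher in Epi wells (5.56%, with 12.2%) and in ExE wells (5.56%, with 11.2%). Bcl9 was called higher in iXEN cells (5.56%, with 10.1%). Tle4, a Groucho-type co-repressor, was at 0.525 in Epi wells, 0.0391 in VE wells and 0.231 in ExE wells.

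Of 12 target genes, which other pathways also control, 10 were over the limit. Lef1, Nkd2, Ccnd1, Myc and Dusp6 (50% of the 10, with 18% of all genes) were called higher in Epi than in VE wells and none (with 14.9%) in the other direction. Lef1, Nkd2 and Ccnd1 (30%, with 10.8%) were called higher in Epi than in ExE wells and Myc (10%, with 15.5%) in ExE wells. Ccnd1, Myc and Dusp6 (30%, with 16.5%) were called higher in ExE than in VE wells and none (with 9.22%) in VE wells. In the wells against the 2D cultures, Lef1, Nkd1, Myc and Dusp6 were higher in Epi wells (40%, with 12.2%). Nkd1 was higher in VE wells (10%, with 5.21%) and Lef1, Tnfrsf19 and Sall4 in ExE wells (30%, with 11.2%). Higher in the cultures were Cdx1 and Mixl1 in ESCs (20%, with 9%), Ccnd1 in iXEN cells (10%, with 10.1%) and Nkd2 and Ccnd1 in iTSCs (20%, with 14.5%). Ccnd1, cyclin D1, was at 0.671 TP10k in Epi wells, 1.27 in ESCs and at most 0.0814 elsewhere, while Myc was at 0.806 in ExE wells and 0.868 in iTSCs against 0.207 in Epi wells. Dusp6 was at 0.933 in Epi wells, 0.823 in ExE wells and 0.0709 in VE wells, and Sall4 between 0.771 and 2.80 in the 6 groups. Of 12 receptors and polarity genes of the beta-catenin-independent branch, 11 were over the limit, and Ror2, Ptk7, Celsr1 and Prickle1 (36.4% of the 11, with 16.5% of all genes) were called higher in ExE than in VE wells, with Celsr3 and Prickle2 (18.2%, with 9.22%) the other way. Ror2, Ptk7 and Celsr1 (27.3%, with 18%) were called higher in Epi than in VE wells, and Ryk, Prickle1, Prickle2 and Prickle3 (36.4%, with 14.9%) in VE wells. Vangl2 and Prickle2 (18.2%, with 10.8%) were called higher in Epi than in ExE wells, and Ror2, Ryk, Prickle1 and Prickle3 (36.4%, with 15.5%) in ExE wells. Against the 2D cultures, none was called higher in Epi wells (with 12.2%). Prickle2 was called higher in VE wells (9.09%, with 5.21%) and Ror2 and Prickle1 in ExE wells (18.2%, with 11.2%). Called higher in a culture were Vangl1 in ESCs (9.09%, with 9%), Ror2 and Celsr1 in iXEN cells (18.2%, with 10.1%) and Celsr2 and Celsr3 in iTSCs (18.2%, with 14.5%). Ror2 was at 0.185 in ExE wells, 0.0411 in Epi wells and 0.00431 in VE wells, Ptk7 at 0.461, 0.252 and 0.0717, Ryk at 0.400, 0.131 and 0.313, and Vangl1 at 0.782, 0.794 and 0.598 in the same order.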

How the data were processed

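Single cells of RtL-embryoids and of 3 2D cultures were prepared by SMART-seq2. Per the labels and the study's methods, the authors demultiplexed reads with bcl2fastq 2.20, quantified transcripts with kallisto on GRCm38 (Gencode vM16) and deposited 1 table of TPM. The listed genes held a median of 637389 TPM per kept cell, and read depth is not given there, so the number of genes above 0 stands in for depth. Of 1931 wells, 39 held no values and 32 summed to 0. A minimum of 2500 detected genes left 314 cells in Epi, 315 in VE and 353 in ExE wells, 142 ESCs, 141 iXEN cells and 141 iTSCs. TPM was rescaled to 10000 per cell (TP10k). Groups follow the labels and, in 3D, the well columns. No test was run because each group is 1 pool or culture, and a fold of 2 with the same direction on each of 3 plates was used as a rule of size, over 6 comparisons. Named with values were all members found in at least 5% of cells (the others by their highest share), and from each further list the 4 genes with the highest mean in any group and the genes behind a count of 5 or fewer. The members and lists were chosen with earlier results of these data known. The rule was also run on simulated data, and the outcome is not given here or used as support. Alternatives covered the cell minimum, scaling, fold, gene filter, depth window, cell identity and each plate. Analyses used Python 3.11.15, numpy 2.4.6 and pandas 2.3.3, and intervals are exact (scipy 1.17.1). The deposited values for all 1931 wells were matched to samples by well name.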

Additional observations from a re-analysis of the deposited data

Results flagged for a closer look

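The 8 genes below were called higher in the 3D wells against one 2D culture and lower against another, and the difference between the pairs was not tested. All values are ratios of mean TP10k, 3D to 2D. Fzd4 was 0.41 against iXEN cells and 17.6 against iTSCs, the latter resting on 22 cells of the ExE wells, 1 of which held 46% of the summed level. Fzd6 was 0.34 against iXEN cells (0.63 with only cells of 6000 to 8500 genes, not called) and 2.32 against iTSCs (1.84 with cells led by the share of their own markers, not called). Fzd9 was 0.39 against ESCs and 2.43 against iXEN cells, resting on 9 cells of the Epi wells in the former pair and, in the latter, on 6 cells of the VE wells and 6 iXEN cells, 1 of which held 64.9% of the summed level. The call against iXEN cells was lost with capped values (1.59). Wnt6 was 0.14 against ESCs, 9.62 against iXEN cells and 0.11 against iTSCs. Wnt7b was 3.11 against ESCs, 0.10 against iXEN cells and 0.24 against iTSCs. Wnt9a was 65.7 against ESCs, where 2 cells had it, 0.29 against iXEN cells and 0.32 against iTSCs. Wls was 0.30 against iXEN cells and 6.24 against iTSCs. Rnf43 was 0.44 against iXEN cells (0.98 with only cells of 6000 to 8500 genes, not called) and 6.10 against iTSCs, where 9 cells had it and 1 held 62.8% of the summed level.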

How the results depend on the processing

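The 84 calls of single members were repeated under 14 alternatives, and 90.7% of the repeats kept the call, 8.99% lost it and 3 turned direction. Dropping the minimum share keeps every call by construction. A stricter fold or minimum share leaves the ratios as they are and can only lose calls. The pooled percentage includes these repeats and is not a measure of stability. With a fold of 3, 10 members were called between VE and ExE wells (16 at a fold of 2), 7 between Epi wells and ESCs (12) and 4 between VE wells and iXEN cells (12). With no minimum share, 23 members were called between ExE wells and iTSCs (15). With cells of 6000 to 8500 genes only, 9 were called between VE and ExE wells, and no call was possible for Epi wells, where a plate had no such cell. In that window 23 of the 43 calls that could be repeated were kept (53.5%), 19 were lost and 1 turned, a lower share kept than over all alternatives, with fewer cells in each group. The ratio of VE to ExE wells for Rnf43 turned to 1.20 in that window and to 1.06 with cells led by their own marker list by level, an alternative chosen after seeing the data, and the ratio of ExE wells to iTSCs for Axin2 turned to 0.71 with cells led by the share of their markers found. The cause was not tested. Leaving out 1 plate at a time gave 15 to 20 members between Epi wells and the other blocks, 15 to 17 between VE and ExE wells, and 9 to 16 against the 2D cultures. A change of setting also moves the share of all genes called, which is not given here. The counts of members under other settings are therefore not read as results about the members. The depth of single cells limits the scarce Wnts, for which a cell at 0 may still hold transcripts.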
